A study of Mus musculus with 8 samples.

Results

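The Hippo pathway is a kinase cascade that holds the transcriptional co-activators YAP and TAZ out of the nucleus. The MST kinases, bound to the scaffold protein SAV1, phosphorylate and activate the LATS kinases and their MOB1 co-activators, and LATS in turn phosphorylates YAP and TAZ, which are then retained in the cytoplasm or degraded. Merlin and the WWC proteins bring LATS to the cell membrane, and the LIM protein AJUBA restrains it. The mRNA levels described here belong to 10 genes of that cascade, chosen by name: Stk3 and Stk4 (the MST2 and MST1 kinases), Sav1, Lats1, Lats2, Mob1a, Mob1b, Nf2 (merlin), Wwc2 and Ajuba. They are 10 genes among the 55536 in the table, and all 10 passed the filter on low values, which kept the 16647 genes that reached 10 normalised counts in 4 or more libraries.

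RNA was sequenced from the posterior palatal shelves, the outgrowths that later fuse into the roof of the mouth, of mouse embryos at stage E14.5, taken as epithelium and mesenchyme together before the shelves had elevated. The mutant group (Yapfl/fl;Tazfl/fl;Col2Cre) had 4 libraries and the control group (Yapfl/fl;Tazfl/fl) had 4. Both groups carried floxed alleles of Yap1 and of Wwtr1, the gene for TAZ, and Cre was present only in the mutants, driven by regulatory sequence of the cartilage collagen gene Col2a1, so recombination is limited to cells in which that driver is or has been active. No label ties a library to an embryo of its own, so each p-value speaks only of how these samples vary, which may be technical. The comparison asks whether the kinase cascade upstream of YAP and TAZ is expressed at another level in shelves in which these 2 effectors were targeted.

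Totals of normalised counts (reads divided by 1 size factor per library) ran from 29541860 to 30244262 in mutants and from 30906402 to 32072446 in controls, without overlap, while the median log2 difference over all tested genes was -0.00015 as deposited and 0.0033 with TMM scaling. Depth itself, as whole reads recovered from the values, was 30731245 to 31347064 in 3 mutant libraries and 29025089 to 32437977 in the controls, and was not recovered for mutant replicate 4. In the targeted genes, Yap1 averaged 8463 ± 277 normalised counts in mutants and 9610 ± 429 in controls (SD, n = 4 each), and Wwtr1 averaged 4007 ± 397 in mutants and 4879 ± 352 in controls. Neither passed the test over all genes (limma adjusted p = 0.751 for each), and a count over a whole gene also takes in reads outside its floxed part. Col2a1, whose regulatory sequence drives the Cre, averaged 12070 ± 4318 in mutants and 17890 ± 4116 in controls (limma adjusted p = 0.754). Mutant replicate 2 stood apart: it had the highest or lowest mean log2 level of the 8 libraries in 7 of 9 marker lists. The markers of palatal mesenchyme and of epithelium were all detected, and among all markers only the osteocalcin gene Bglap was listed at 0. Summed over 12 epithelial markers, among them Cdh1 and Epcam, the level ranged from 34000 to 61180 normalised counts in mutants and from 30950 to 44570 in controls, and 12 of 12 had higher means in mutants. For 10 osteoblast markers the sum ranged from 6787 to 23170 in mutants and from 24330 to 45610 in controls, with 9 of 9 tested members lower in mutants. Lower means in mutants were also found for 6 of 7 tested cartilage markers and 7 of 8 endothelial ones, and higher means for 6 of 6 erythroid, 5 of 5 Schwann cell, 4 of 6 skeletal muscle and 4 of 6 macrophage markers, while palatal mesenchyme divided into 4 lower and 4 higher. None of these markers passed the limma test over all genes.

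No gene of the cascade differed between mutant and control shelves beyond the spread of 4 libraries each. Of the 10 genes, 5 had lower and 5 had higher mean log2 levels in mutants, where 8330 of the 16647 tested genes were lower. Of the 10, 0 passed the limma test with Benjamini-Hochberg adjustment over all genes (adjusted p from 0.773 to 0.997), where 0.0240% of all tested genes were called. At an unadjusted limma p under 0.05 the count was also 0, against 6.57% of all tested genes. On 7 libraries with recovered whole reads, edgeR and DESeq2 called 0 of them too, with 0.0489% and 0.226% of all genes called, and Ajuba alone had an unadjusted p under 0.05 in each, as did 1076 (edgeR) and 1139 (DESeq2) of all 16366 genes. In none of the 10 did the 4 mutant libraries lie wholly on one side of the 4 controls, a separation that 3.77% of all tested genes showed (1.91% lower in mutants and 1.86% higher). The median log2 difference, mutant minus control, was 0.0044 over the members and -0.00015 over all tested genes. In 7 of 10 the absolute log2 difference was under 0.1, against 47.0% of all tested genes and 68.4% of the 6792 genes whose mean lay in the same range, 780 to 6176 normalised counts. For 9 of 10 genes, all but Ajuba, the 95% interval of the log2 difference lay between -0.5 and 0.5. Fewer cells of a type and less RNA per cell cannot be told apart in such bulk samples.

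**Figure D1:**
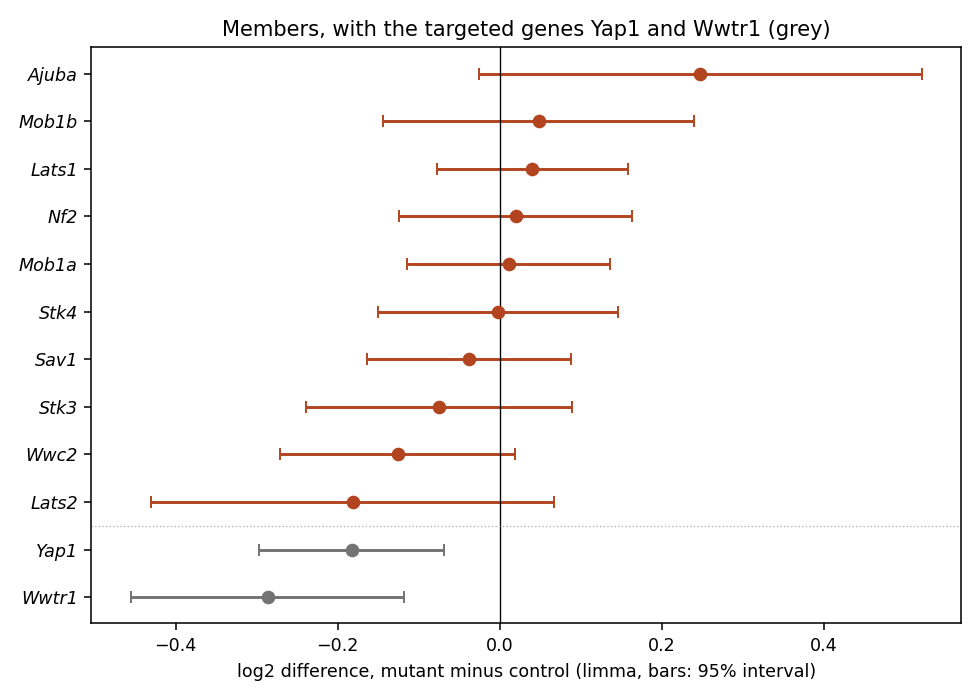
Log2 difference of each gene, mutant minus control, from limma on log2(normalised count + 1), with its 95% interval; the targeted genes Yap1 and Wwtr1 are in grey. The intervals of all 10 members include 0, from Lats2 at -0.18 to Ajuba at 0.25.

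YAP and TAZ do not bind DNA themselves and act mainly through the TEAD factors, which recognise the core motif CATTCC. On the other strand it is spelled GGAATG. The promoters of the members were therefore searched for it, in windows of 300 bases from 250 before to 50 after each RefSeq start site in GRCm38.p6, with both spellings counted so that both strands are covered and no match overlapping another. Windows were found for 9 of the 10 genes, 11 windows in all. The motif stood in 5 of the 11, in Sav1, Mob1a, Lats2, Wwc2 and Ajuba, against 14.7% of all 32851 windows of that length. Wwc2 held 3 matches, starting at -203, -94 and -79 relative to the start site, and Ajuba held 2, at -186 and -164. Lats2 held 1, at 4 bases past the start. These 3 windows are shown because they belong to the members with the 3 largest absolute log2 differences described below, with the motif in capitals and the strand of the gene read 5′ to 3′. Of these members Wwc2 and Lats2 were lower in mutants and Ajuba was higher. Sav1 and Mob1a, which also held a match, differed by only -0.038 and 0.011 on the log2 scale. The Lats2 and Wwc2 windows each belong to a start site inside the gene as the table bounds it. The Lats2 window also spans the 5′ end of another row with that symbol, described below. A match is a description of the letters, not of binding, which was not measured here.
Wwc2, minus strand, chr8:47990495-47990794: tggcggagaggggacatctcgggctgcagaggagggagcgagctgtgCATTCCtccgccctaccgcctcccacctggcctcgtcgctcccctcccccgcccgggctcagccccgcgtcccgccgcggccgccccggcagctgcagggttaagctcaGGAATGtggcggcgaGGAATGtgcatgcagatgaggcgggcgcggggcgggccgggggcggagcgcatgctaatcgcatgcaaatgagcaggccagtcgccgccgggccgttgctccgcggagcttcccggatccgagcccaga
Ajuba, minus strand, chr14:54577612-54577911: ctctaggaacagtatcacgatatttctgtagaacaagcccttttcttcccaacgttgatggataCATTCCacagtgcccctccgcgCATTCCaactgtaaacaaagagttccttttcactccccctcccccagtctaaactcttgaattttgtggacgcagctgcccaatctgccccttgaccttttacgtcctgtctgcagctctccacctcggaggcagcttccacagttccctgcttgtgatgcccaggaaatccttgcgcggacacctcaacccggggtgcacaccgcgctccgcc
Lats2, minus strand, chr14:57746074-57746373: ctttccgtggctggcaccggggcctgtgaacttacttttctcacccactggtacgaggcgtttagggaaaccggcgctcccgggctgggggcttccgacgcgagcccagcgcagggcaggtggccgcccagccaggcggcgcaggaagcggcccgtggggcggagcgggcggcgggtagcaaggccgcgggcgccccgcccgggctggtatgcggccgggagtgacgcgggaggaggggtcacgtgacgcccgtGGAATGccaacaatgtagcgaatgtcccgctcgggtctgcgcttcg

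The MST kinases sit at the top of the core cascade. Stk3 (ENSMUSG00000022329, chromosome 15 from 34875496 to 35155806 in the table's coordinates, whose gene positions equal those of GRCm38 for 95.2% of the IDs compared, though not for Stk3 and Ajuba) encodes MST2. It had 1556.8, 1606.1, 1642.1 and 1823.7 normalised counts in mutant replicates 1 to 4, and 1605.7, 1790.3, 1714.4 and 1870.8 in control replicates 1 to 4. The groups overlapped, with 1 mutant library below the lowest control. Stk3 differed by -0.075 on the log2 scale (SE 0.0750, 95% interval -0.24 to 0.089, limma adjusted p = 0.882, exact two-sided permutation p = 0.314). Stk4 (ENSMUSG00000018209, chromosome 2 from 164070322 to 164155524), which encodes MST1, had 1966.2, 2321.6, 2167.0 and 2047.2 normalised counts in mutants and 2159.4, 2016.8, 2139.1 and 2187.0 in controls. Its means were the same to 4 digits, 2126 in mutants and 2126 in controls. The mutant libraries were both the lowest and the highest of the 8 for this gene, and its log2 difference was -0.0022 (95% interval -0.15 to 0.15, limma adjusted p = 0.997).

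Sav1 (ENSMUSG00000021067, chromosome 12 from 69965012 to 69987002), the scaffold that docks MST to LATS, had 3024.2, 3042.8, 3159.8 and 3423.8 normalised counts in mutants and 3296.7, 3254.6, 3154.8 and 3265.3 in controls. The 4 controls lay within the range of the 4 mutants. The coefficient of variation of Sav1 was 1.89% in controls, against 5.82% in mutants. The log2 difference of Sav1 was -0.038 (95% interval -0.16 to 0.088, limma adjusted p = 0.926, exact permutation p = 0.486). Exons of Atl1 on the opposite strand cover 25.4% of the exon bases of Sav1, and no source used here gives the strand setting of the counting. Atl1 averaged 160 normalised counts over the 8 libraries.

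The LATS kinases are the ones that phosphorylate YAP and TAZ, and Lats2 is itself known as a transcriptional target of YAP and TAZ in cultured cells, where it closes a negative feedback loop. Lats1 (ENSMUSG00000040021, chromosome 10 from 7681214 to 7716460) had 2970.7, 3176.3, 3008.3 and 2960.5 normalised counts in mutants, against 2931.4, 2967.6, 3037.9 and 2842.0 in controls. All 4 mutant libraries lay above the control mean of 2945, but 3 of them stayed within the range of the controls. Lats1 differed by 0.0405 (SE 0.0541, 95% interval -0.078 to 0.16, limma adjusted p = 0.914, exact permutation p = 0.257). Its pooled within-group SD of 0.0437 on the log2 scale was above that of only 1.19% of all tested genes.

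Lats2 (ENSMUSG00000021959, chromosome 14 from 57689662 to 57758388) had the lowest log2 difference of the 10. It had 752.7, 856.5, 652.2 and 664.5 normalised counts in mutants and 788.0, 765.3, 961.3 and 797.4 in controls. Mutant replicates 1, 3 and 4 lay below every control and mutant replicate 2 lay above 3 of the 4 controls. Lats2 averaged 732 ± 94.6 in mutants and 828 ± 89.9 in controls (SD, n = 4 each), a log2 difference of -0.18 (SE 0.114, 95% interval -0.43 to 0.068, limma adjusted p = 0.797, exact permutation p = 0.200). Single libraries moved this value: it was -0.26 without mutant replicate 2 (unadjusted p = 0.0389 and adjusted p = 0.976 by limma) and -0.11 without control replicate 3, the highest control. A second row of the table carries the symbol Lats2 under another ID (ENSMUSG00000114942, chromosome 14 from 57642077 to 57746103), which GENCODE names Gm49361, and it was listed at 0 in all 8 libraries. Its exons cover 42.4% of the exon bases of Lats2 on the same strand. How the authors' counting treated reads that match both genes is not stated in any source used here, and its part in the level of Lats2 was not tested.

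**Figure D2:**
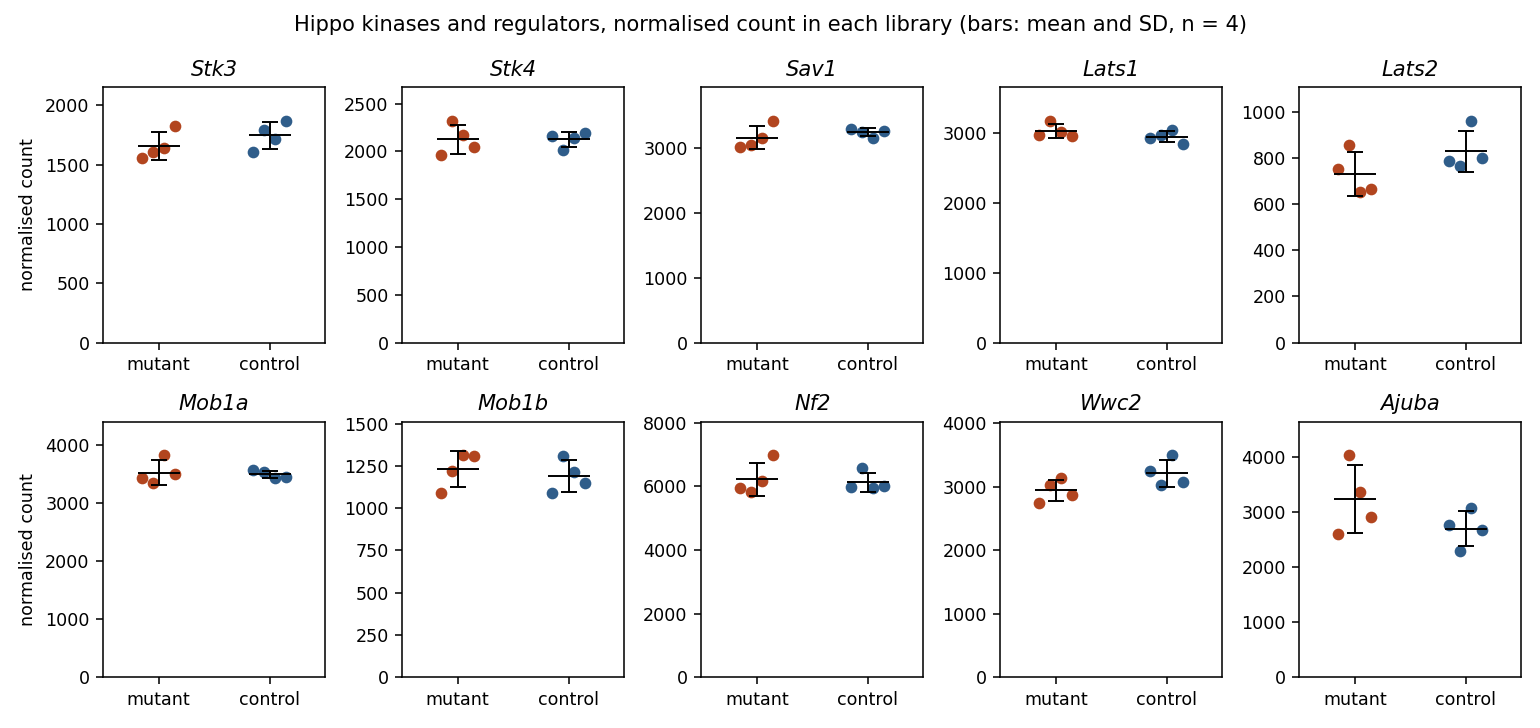
Normalised count of each of the 10 genes in the 4 mutant (left) and 4 control (right) libraries, each axis starting at 0, with the mean and SD as bars. The groups overlap in every panel, and the widest spread is that of Ajuba among the mutants, from 2611.9 to 4040.4.

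The MOB1 proteins are the co-activators that LATS binds. Mob1a (ENSMUSG00000043131, chromosome 6 from 83326016 to 83343776) had 3425.8, 3341.9, 3817.8 and 3489.5 normalised counts in mutants and 3559.7, 3525.0, 3418.5 and 3448.9 in controls. The controls varied by 1.88% of their mean and lay within the range of the mutants, whose variation was 5.92%. Mob1a differed by 0.011 (95% interval -0.11 to 0.14, limma adjusted p = 0.981). Mob1b (ENSMUSG00000006262, chromosome 5 from 88720855 to 88764220) had 1088.1, 1218.1, 1313.1 and 1306.8 in mutants and 1089.3, 1306.1, 1214.7 and 1151.0 in controls. The groups covered nearly the same range for Mob1b, with a log2 difference of 0.048 (95% interval -0.14 to 0.24, limma adjusted p = 0.943).

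Nf2 and Wwc2 act upstream of the core kinases. Nf2 (ENSMUSG00000009073, chromosome 11 from 4765845 to 4849536), a tumour suppressor gene whose product merlin links membrane and cytoskeleton, had 5951.2, 5810.3, 6156.5 and 6978.1 normalised counts in mutants and 5972.5, 6580.4, 5946.4 and 6016.0 in controls. One library in each group was high, mutant replicate 4 and control replicate 2, and the other 6 lay between 5810.3 and 6156.5. Nf2 differed by 0.020 (SE 0.0660, 95% interval -0.12 to 0.16, limma adjusted p = 0.971), and by -0.036 without mutant replicate 4. Wwc2 (ENSMUSG00000031563, chromosome 8 from 47823959 to 47990924), a relative of KIBRA that activates LATS, had 2746.1, 3022.0, 3133.7 and 2872.5 normalised counts in mutants and 3247.7, 3030.1, 3499.5 and 3075.8 in controls. All 4 mutant libraries were below the control mean of 3213, and 3 of them were below the lowest control. With means of 2944 ± 170 in mutants and 3213 ± 213 in controls (SD, n = 4 each), Wwc2 differed by -0.13 (SE 0.0665, 95% interval -0.27 to 0.019, limma adjusted p = 0.773, exact permutation p = 0.114). The value was -0.084 without control replicate 3, the highest library. Cldn22, which covers 7.22% of the exon bases of Wwc2 on the other strand, averaged 2.59 normalised counts.

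Ajuba (ENSMUSG00000022178, chromosome 14 from 54567469 to 54577661) encodes a LIM-domain protein of cell junctions that binds and restrains LATS. Its log2 difference was the highest of the 10 genes and its spread the widest. The mutant libraries had 2611.9, 4040.4, 3372.0 and 2921.1 normalised counts, and the controls had 2764.3, 2301.8, 3071.7 and 2677.0. Mutant replicates 2 and 3 lay above every control, while mutant replicate 1 lay below 3 of the 4. Ajuba averaged 3236 ± 620 in mutants and 2704 ± 317 in controls (SD, n = 4 each), a log2 difference of 0.25 (SE 0.125, 95% interval -0.026 to 0.52, limma adjusted p = 0.773, exact permutation p = 0.200). Without mutant replicate 2 the difference was 0.13 and without mutant replicate 1 it was 0.34 (limma adjusted p = 0.976 and 0.549). The library highest for Ajuba was also highest for the 12 epithelial markers, at a mean log2 level of 0.71 above the control mean. The control lowest for Ajuba, replicate 2, was lowest for them at -0.30. Over the mutant replicates 1 to 4 the epithelial level was -0.044, 0.71, 0.17 and 0.29, and over the control replicates 1 to 4 it was 0.0090, -0.30, 0.022 and 0.27. Mutant replicate 2 was also highest for the erythroid markers, at 0.98, with -0.31, 0.40 and 0.53 in mutant replicates 1, 3 and 4. In control replicates 1 to 4 the erythroid level was -0.23, -0.091, 0.19 and 0.13. Mutant replicate 2 was lowest for the osteoblast, cartilage, endothelial, macrophage and palatal mesenchyme markers. The part of the epithelial share, or of any other cell type, in the Ajuba values was not tested.

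Levels of different genes were compared per kb of summed exon length in GENCODE M21. For Stk3 and Ajuba the gene positions of the table differ from GENCODE M21, so their lengths may differ from those behind the counts. In mutants the order was Nf2 (912 ± 76.6 normalised counts per kb), Ajuba (888 ± 170), Mob1a (734 ± 43.5), Sav1 (601 ± 35.0), Lats1 (415 ± 13.8), Stk4 (363 ± 26.4), Stk3 (271 ± 19.0), Wwc2 (214 ± 12.3), Lats2 (105 ± 13.6) and Mob1b (81.9 ± 6.98; SD, n = 4 each). On this length the controls had the same order, with Nf2 at 898 ± 44.3, Ajuba at 742 ± 86.9, Mob1a at 728 ± 13.7, Lats2 at 119 ± 12.9 and Mob1b at 79.2 ± 6.16. The library ranges of Ajuba and Mob1a overlapped in mutants and in controls, and those of Nf2 and Ajuba overlapped in mutants, so these neighbours cannot be ordered beyond their spread. On this length all other neighbours were separated in each group. Among all tested genes the levels per kb placed Nf2 above 90.2% and Mob1b above 38.3%. The order rests in part on the length used. Per kb of the longest transcript, Stk3 was above Stk4, at 503 against 406 in mutants and 530 against 406 in controls, and also above Lats1, at 420 in mutants and 409 in controls. Sav1 was above Mob1a, at 941 against 798 in mutants and 965 against 791 in controls. Lats2 and Mob1b were then close in mutants, at 141 against 137, with 160 against 133 in controls. The order then differed between the groups, since Sav1 was below Ajuba in mutants (941 against 953) and above it in controls (965 against 796). With the exon bases shared with Atl1 left out of its length, Sav1 was at 805 in mutants and 825 in controls, again above Mob1a. With those shared with Gm49361 left out, Lats2 was at 182 in mutants and 206 in controls.

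**Figure D3:**
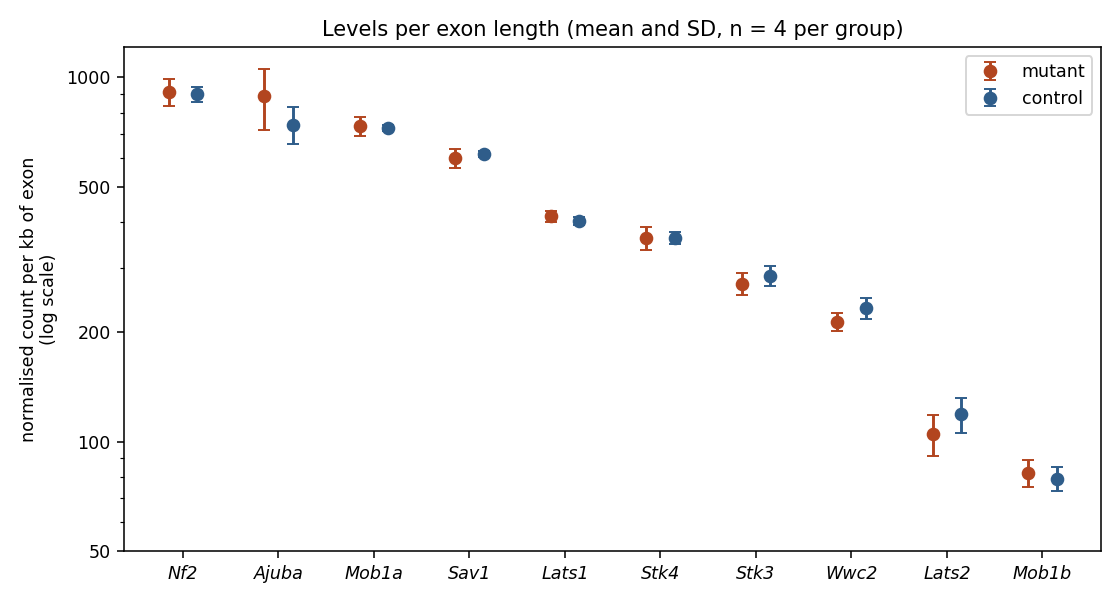
Normalised count per kb of exon for the 10 genes, ordered by the mutant mean, on a log axis; points are means and bars SDs of 4 mutant and 4 control libraries. The order is the same in each group, from Nf2 (912 in mutants and 898 in controls) to Mob1b (81.9 in mutants and 79.2 in controls).

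Paralogues share a role in the cascade, and their ratio within a library does not depend on its depth. No stretch of 50 bases was shared between the transcripts of Stk3 and Stk4, of Lats1 and Lats2, or of Mob1a and Mob1b, so reads of that length can be told apart between partners. Per kb of exon, the ratio of Lats1 to Lats2 was 3.77, 3.54, 4.41 and 4.26 in mutants and 3.55, 3.70, 3.02 and 3.41 in controls. Mutant replicates 1, 3 and 4 had higher ratios than every control, and mutant replicate 2 lay among the controls. The mean was 3.99 ± 0.405 in mutants and 3.42 ± 0.294 in controls (SD, n = 4 each), a log2 difference of 0.22. This is the log2 difference of Lats1 minus that of Lats2, so it is not a separate result, and it was not tested. It ran from 0.16 to 0.28 when each library was left out in turn. When the exon bases that Lats2 shares with Gm49361 were left out of its length, the ratio was 2.30 in mutants and 1.97 in controls. The ratio of Mob1a to Mob1b was 9.87, 8.60, 9.12 and 8.37 in mutants and 10.3, 8.46, 8.83 and 9.40 in controls, with overlapping groups. That of Stk3 to Stk4 was 0.759, 0.663, 0.726 and 0.854 in mutants and 0.713, 0.851, 0.768 and 0.820 in controls, again with overlap. These ratios also depend on the length used. Over the longest transcripts the ratio of Stk3 to Stk4 was 1.24 in mutants and 1.31 in controls. On that length the ratio of Lats1 to Lats2 was 3.01 in mutants and 2.58 in controls. The ratio of Mob1a to Mob1b was then 5.83 in mutants and 5.98 in controls. Lats1 exceeded Lats2, and Mob1a exceeded Mob1b, in all 8 libraries.

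**Figure D4:**
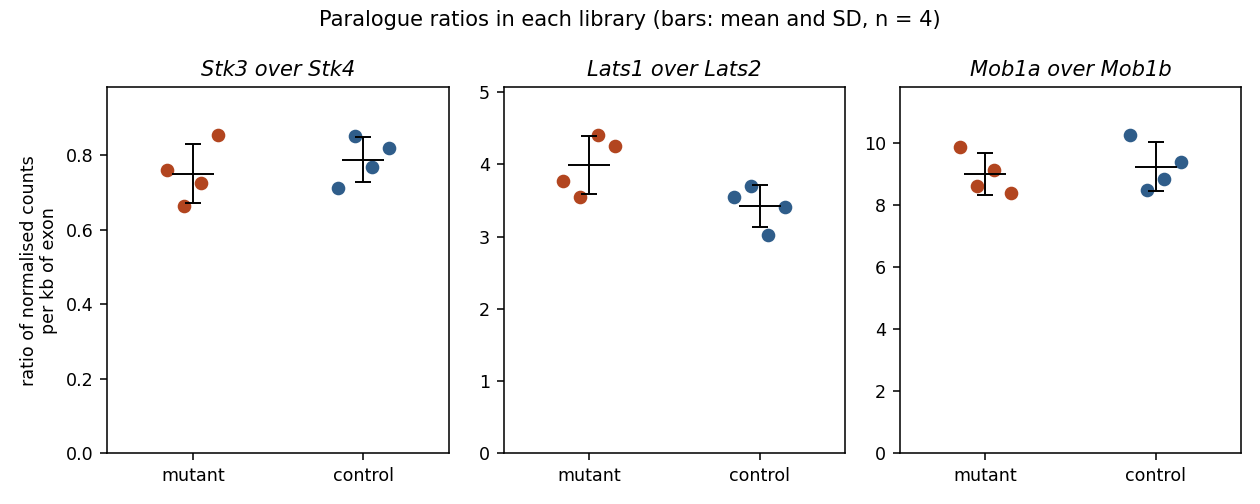
Ratio of normalised counts per kb of exon for each pair of paralogues in the 4 mutant (left) and 4 control (right) libraries, with mean and SD, on axes starting at 0. The Lats1 to Lats2 ratio is 3.99 in mutants and 3.42 in controls, and the ranges overlap in all 3 pairs.

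Variation among replicates differed between the members. Their median pooled SD was 0.0927 on the log2 scale, against 0.190 over all tested genes and 0.112 over the 6792 genes of similar mean. Ajuba, at 0.23, was the one member above the median of all tested genes, and Lats2 (0.17) and Mob1b (0.12) were also above that of the genes of similar mean. By the root mean square difference of their centred log2 levels over the 8 libraries, the genes whose pattern was most like that of Ajuba were Rbm38 (0.0629), Pdgfa (0.0782) and Dedd2 (0.0787). Among those most like Lats2 were Pole (0.0727) and Snx29 (0.0749). None of these 5 genes passed the limma test over all genes.

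Other genes of the pathway were taken from 8 lists by role, of which 82 of 83 genes were in the table and tested. Of the 82, 36 had lower and 46 had higher mean log2 levels in mutants, and 0 passed the limma test over all genes, against 0.0240% of all genes called. At an unadjusted limma p under 0.05 there were 6 of 82 (7.32%), against 6.57% of all tested genes, and edgeR and DESeq2 on 7 libraries called 0. Each of these had 9 of 82 at an unadjusted p under 0.05, against 1076 (edgeR) and 1139 (DESeq2) of all 16366 genes. The mutant and control libraries did not overlap in 4 of 82 genes (4.88%), against 3.77% of all tested genes. These were the targeted Yap1, lower in mutants, and 3 others given below. The median log2 difference over the 82 genes was 0.033, against -0.00015 over all tested genes.

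Nearest to AJUBA are its LIM-domain relatives, some of which also bind LATS. In this list of 5 genes 3 had lower and 2 higher means in mutants. Wtip had 1274.8, 1325.0, 1391.3 and 1225.9 normalised counts in mutants and 1073.3, 1216.3, 1224.0 and 1112.7 in controls, so every mutant library was above every control. Its log2 difference was 0.17 (95% interval 0.0053 to 0.34, limma adjusted p = 0.754). Lpp, a focal adhesion member of the zyxin branch, had 2376 ± 254 in mutants and 2776 ± 230 in controls normalised counts (SD, n = 4 each), a log2 difference of -0.23 (limma adjusted p = 0.754). Limd1, which shares the LATS-binding role of AJUBA, differed by 0.071 (95% interval -0.079 to 0.22).

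Kinases that act in parallel to MST and LATS divided into 8 lower and 9 higher of 17. Map4k3, a kinase able to phosphorylate LATS, had 2836.6, 2917.0, 2792.2 and 2987.9 normalised counts in mutants and 3255.1, 3377.6, 3030.7 and 3049.2 in controls. Every mutant library was below every control for Map4k3, with a log2 difference of -0.14 (95% interval -0.27 to -0.012, limma adjusted p = 0.754). Taok3, a kinase of the family that activates MST, averaged 923 ± 174 in mutants and 1154 ± 150 in controls (log2 difference -0.33, limma adjusted p = 0.754). Nuak2, a target and activator of YAP in human cancer cells, was low, at 92.1 ± 37.7 in mutants and 64.8 ± 10.3 in controls.

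Of 17 tested membrane and junction scaffolds, 10 had lower and 7 higher means in mutants, with a list median of -0.019, or -0.043 without mutant replicate 2. Patj, a polarity scaffold of tight junctions, differed by 0.17, Amotl1, an angiomotin that binds YAP in the cytoplasm, by -0.080 and Tjp1 (ZO-1) by -0.089 (limma adjusted p = 0.774, 0.794 and 0.804). The STRIPAK complex, a phosphatase assembly that removes the activating phosphate from MST, had 4 lower and 9 higher of 13 genes. Its catalytic subunit gene Ppp2cb averaged 2257 ± 170 in mutants and 2006 ± 168 in controls (log2 difference 0.17, 95% interval -0.0013 to 0.34, limma adjusted p = 0.754), while Ppp2ca differed by 0.059 and Fgfr1op2 by -0.14.

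The RASSF proteins bind MST kinases through a shared SARAH domain. All 6 tested genes of this family had higher mean log2 levels in mutants, with a median of 0.15 against -0.00015 over all tested genes. Without mutant replicate 2, 5 of 6 were higher, with a median of 0.13. Rassf1 averaged 1237 ± 37.2 in mutants and 1134 ± 113 in controls, and Rassf3 averaged 1700 ± 248 in mutants and 1507 ± 261 in controls (SD, n = 4 each; log2 differences 0.13 and 0.18). Leaving out each library in turn, Rassf1 ran from 0.067 to 0.18, Rassf3 from 0.12 to 0.29 and Rassf6 from 0.27 to 0.90. Rassf5 ran from -0.062 to 0.36, and the lowest values of Rassf2 and Rassf4 were 0.020 and 0.016. Rassf6 was low, at 39.0 ± 22.5 in mutants and 23.3 ± 6.96 in controls. Rassf5 was also low, at 84 ± 33 in mutants and 73 ± 18 in controls. No RASSF gene passed the limma test (lowest adjusted p 0.804), and the 2 groups overlapped in each.

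The other MOB genes, Mob2, Mob3a, Mob3b and Mob3c, had 2 lower and 2 higher means, with log2 differences from -0.085 to 0.054. Genes for the degradation and cytoplasmic retention of YAP and TAZ, listed together with Siah2, had 4 lower and 9 higher of 13. Among these, Ywhah, which encodes the eta member of the proteins that hold phosphorylated YAP in the cytoplasm, had 3671.9, 3638.2, 3801.4 and 3627.1 normalised counts in mutants and 3904.7, 4152.7, 3863.7 and 3827.0 in controls. Every mutant library was below every control for Ywhah, although the log2 difference was only -0.095 (95% interval -0.21 to 0.019, limma adjusted p = 0.773). Siah2, a ubiquitin ligase that targets LATS2 in human cells, differed by 0.27 (95% interval -0.014 to 0.56), and Fbxw11, a subunit of the ligase that degrades YAP, by 0.088. Of YAP, TAZ, the 4 TEAD genes and Vgll4, a TEAD cofactor that competes with YAP, 5 had lower and 2 higher means in mutants. Yap1 was at -0.18 and Wwtr1 at -0.29, and Vgll4 was at 0.11 (limma adjusted p = 0.751, 0.751 and 0.847). Leaving out each library in turn, Vgll4 ran from 0.013 to 0.16.

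**Figure D5:**
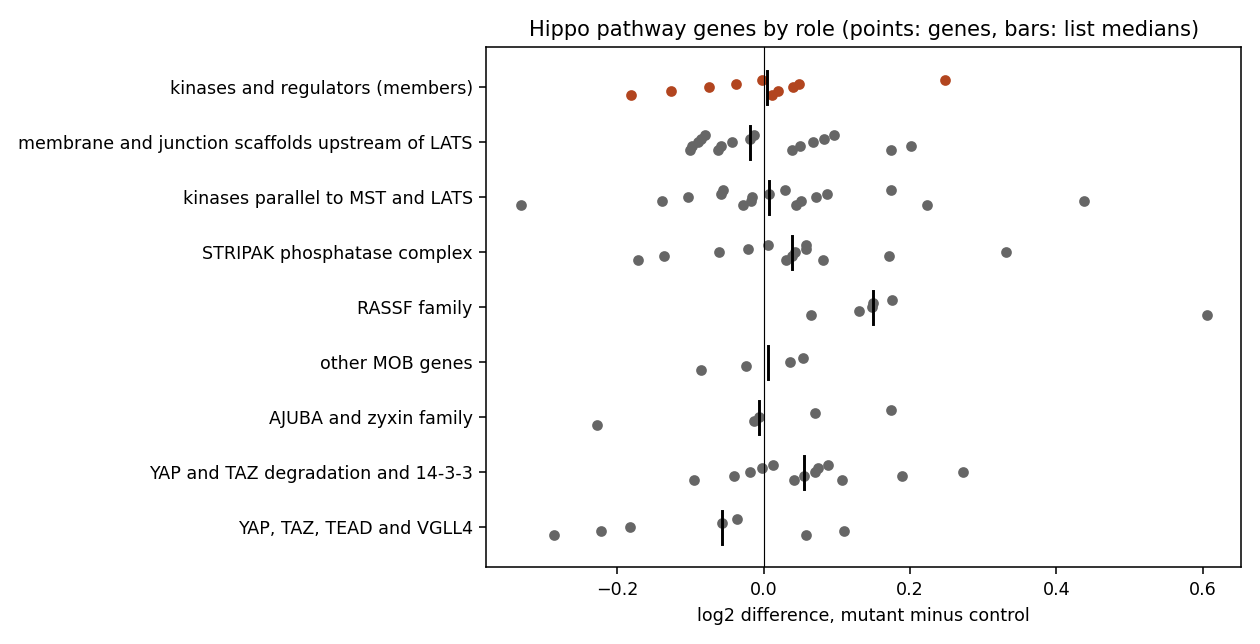
Log2 difference, mutant minus control, of each tested Hippo pathway gene by role; the 10 kinases and regulators are at the top, and vertical bars are list medians. List medians run from -0.057 for YAP, TAZ, TEAD and VGLL4 to 0.15 for the RASSF family.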

How the data were processed

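RNA of 8 libraries (4 mutant, 4 control, as the genotype labels give them) was analysed from a deposited table of 55536 genes. Replicate numbers follow sample order, and every value column was matched to a sample by its title. Per the submitters' processing notes, STAR 2.7.2 and DESeq2 (no version) were used; no source used here gives the counter, strand setting, annotation or build. The signal values were deposited by the authors as normalised counts, rounded to 1 decimal. For 7 libraries whole reads were recovered (29025089 to 32437977 per library; of the values from 50 to 5000, 94.5% to 100% came within 0.05 reads of a whole number); in mutant replicate 4 the step was too close to 1 to check at low values, so count tests used the other 7. The log2 values, per the file headers variance-stabilised by the authors, served 1 alternative. A value of 0 allows up to 3 reads per library, for counting error only.

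R 4.3.3 and limma 3.58.1 gave the differences, from log2(normalised count + 1) by genotype alone and with variances moderated along an intensity trend, over 16647 genes with at least 10 normalised counts in at least 4 libraries, two-sided, Benjamini-Hochberg adjusted at 0.05. Each log2 difference and fold is on that scale, which understates the change of low genes. Exact two-sided permutation of the 8 libraries, computed for each of the 10 members and not adjusted, cannot give a p below 0.0286. Alternatives were other pseudocounts, filters and scalings, library weights, robust or untrended variances, a block, leaving out each library, edgeR 4.0.16 and DESeq2 1.42.0. The fits were tested on simulated data. Promoters came from RefSeq and exon lengths and transcripts from GENCODE M21, with gene names taken from the table or, by ID, from GENCODE. Python 3.11.15 with pandas 2.3.3, scipy 1.17.1 and matplotlib 3.10.9 was used otherwise.

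Named genes were the members, Yap1, Wwtr1 and Col2a1, up to 3 genes of each role list by smallest limma p, the 3 genes most like the members at either extreme, and up to 2 of each marker list (not all are named, and 1 of them is not reported here). Bglap, Mob3b and genes that overlap a member were named outside this rule, after their values were seen. The members and lists were chosen with earlier results of these data known.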

Additional observations from a re-analysis of the deposited data

Results flagged for a closer look

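Among the 20 groups of 4 libraries (10 genes in mutants and in controls), 2 held a library far from its 3 neighbours by Dixon's criterion at the 95% level, where chance flags about 1 in 20 groups. Lats2 in control replicate 3 was at 961.3 normalised counts, with the next control at 797.4. Nf2 in control replicate 2 was at 6580.4, with the next control at 6016.0. The log2 difference of Lats2 was -0.11 without control replicate 3, and that of Nf2 was 0.054 without control replicate 2. Each was the highest value of its gene when the libraries were left out in turn.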

How the results depend on the processing

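Over 220 recomputed log2 differences of the 10 genes, 206 kept their direction and 14 did not, and none passed the test (adjusted p from 0.549 to 1). The changed filters and the robust or untrended variances leave each log2 difference unchanged, so their agreement in direction was fixed in advance. The other pseudocounts barely moved it. Ajuba had an unadjusted limma p of 0.0142 without mutant replicate 1 and 0.0380 without control replicate 3. The reversals were in genes near 0. Stk4 was at 0.0013 with TMM scaling, 0.016 with the replicate block, 0.018 with edgeR and 0.017 with DESeq2, and ran from -0.046 to 0.034 when each library was left out. Sav1 was at 0.023 with the replicate block. Nf2 was at -0.037 with edgeR and -0.038 with DESeq2, and ran from -0.036 to 0.054 over the libraries left out. Mob1a ran from -0.029 to 0.035. The cause was not tested. The number of genes called over the whole table, 4 with limma, was 0 with robust variances, 0 without the trend, 8 with edgeR and 37 with DESeq2 on 7 libraries, and 0 to 11 when each library was left out (0 without control replicate 2, control replicate 4 or mutant replicate 3, 8 without mutant replicate 4 and 11 without control replicate 3).

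The first number in each title was tried as a replicate block. It is shared across the groups by 6 of the 8 libraries, and mutant replicate 1 and control replicate 1 have no partner and add nothing to the blocked difference. Deviations of libraries that share it across groups correlated at -0.053, 0.21, -0.00057 and 0.067 over 13619 genes. Libraries of different groups that do not share it correlated at -0.18 to 0.14. So few pairs cannot decide whether the number marks a pairing. With the block 6 genes were called. Lats2 was then at -0.30, the lowest log2 difference of its alternatives, with an unadjusted limma p of 0.0562. Ajuba was at 0.25 with an unadjusted limma p of 0.0289. The edgeR and DESeq2 tests on 8 libraries were not run, and those on 7 were chosen after seeing the data, as were the list counts without mutant replicate 2. With 4 libraries a group, the 95% intervals leave room for folds from 0.742 to 1.05 in Lats2 and from 0.982 to 1.44 in Ajuba.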
